A study of Mus musculus with 18 samples.

Results

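The 10 genes of polyamine metabolism were examined for their level in perigonadal white adipose tissue, and all were found by symbol among the 16272 genes that the deposited table of tested genes lists. They are *Odc1*, *Amd1*, *Srm* and *Sms* of synthesis, *Sat1*, *Smox* and *Paox* of catabolism, the antizyme genes *Oaz1* and *Oaz2*, and the antizyme inhibitor gene *Azin1*. The genes were chosen by name for their place in the pathway, with the authors' comparisons of these libraries known. Such a choice can favour genes that differ between the groups, so nothing about those comparisons is read from it. The RNA seq libraries, 18 in all, came from female wild-type C57BL/6J mice (written C57b/6J in the labels), 6 with activity-based anorexia (ABA), 6 weight restored (WR) and 6 controls (CON). Mice of every group were housed singly with a running wheel. ABA mice had food for a shrinking part of the day until they met the weight loss endpoint, WR mice then returned to free feeding until their weight had recovered, and CON mice ate freely throughout.

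The values described here are levels averaged over all 18 libraries. The deposited tables pair this average with fold changes and p-values of the authors' own comparisons, which were not used, so no difference between ABA, WR and CON was analysed here. The average is the authors' mean of log2 CPM over the libraries, CPM being a gene's read count scaled to the size of its library. It has no replicate error that could be given, and a gene that differs between the groups has a mean lying between its group levels. In bulk tissue, fewer cells of a type and less RNA per cell cannot be told apart.

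Polyamines are small positively charged molecules that bind RNA, DNA and proteins and are needed for growth. The decarboxylase ODC1 makes putrescine from ornithine, and AMD1 makes the decarboxylated S-adenosylmethionine that donates the aminopropyl group. Spermidine synthase (SRM) and spermine synthase (SMS) add that group in turn. Breakdown runs through the acetyltransferase SAT1 and the oxidase PAOX, or directly from spermine through the oxidase SMOX. Antizymes bind ODC1 and send it to the proteasome, and their translation needs a ribosomal frameshift that polyamines favour. The antizyme inhibitor AZIN1 resembles ODC1 without its activity and takes antizyme away from it. In adipocytes, SAT1 and the flux through this cycle consume acetyl-CoA.

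The tissue label was checked against marker genes. All 8 adipocyte markers lay above the median of tested genes, and *Adipoq*, *Plin1*, *Fabp4*, *Cfd* and *Cidec* averaged 10.86, 10.78, 12.36, 12.77 and 11.07 log2 CPM. The 4 mesothelial markers lay above the median as well, from 4.91 (*Msln*) to 7.18 (*Upk3b*) log2 CPM. Of 6 ovarian markers, 2 were listed, *Star* at 3.70 and *Inha* at 0.19 log2 CPM, and of 4 markers of oviduct and uterus epithelium, 1 was listed, *Ovgp1* at 0.30 log2 CPM. The other markers of these 2 lists were looked up by symbol but not listed, so they have no level here. The part that mesothelial cells have in the levels below was not tested.

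Most of the polyamine genes were expressed above the middle of the tested genes. Of the 10 genes, 8 exceeded the median of tested genes, which was 3.83 log2 CPM (14.2 CPM). The median of the 10 was 5.10 log2 CPM. Protein-coding genes alone had a higher median, 4.32 log2 CPM, which 7 of the 10 exceeded. *Oaz1*, *Azin1* and *Oaz2*, which regulate ODC1, were the 3 genes at or above the 75th percentile with no length correction among all tested genes. *Sms* and *Smox* were the 2 genes below the median of all tested genes. Among protein-coding genes alone *Oaz2* lay at percentile 72.7. Ranked per length of the longest transcript, *Sat1* (89.2), *Odc1* (83.4) and *Srm* (77.4) also passed the 75th percentile, each above *Azin1* (76.1). Since a long transcript yields more reads than a short one at equal abundance, levels of different genes are set against each other mainly per kilobase (kb) of the longest annotated transcript, as log2 CPM per kb, and other length settings are named where they are used. On this scale the 10 genes spanned an 18.7-fold range, against 33.8-fold per kb of coding sequence and 44.1-fold per kb of the longest coding transcript. Per kb of the longest transcript their median was 3.70, against 2.21 for the 16255 tested genes with an annotated length.

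**Figure D1:**
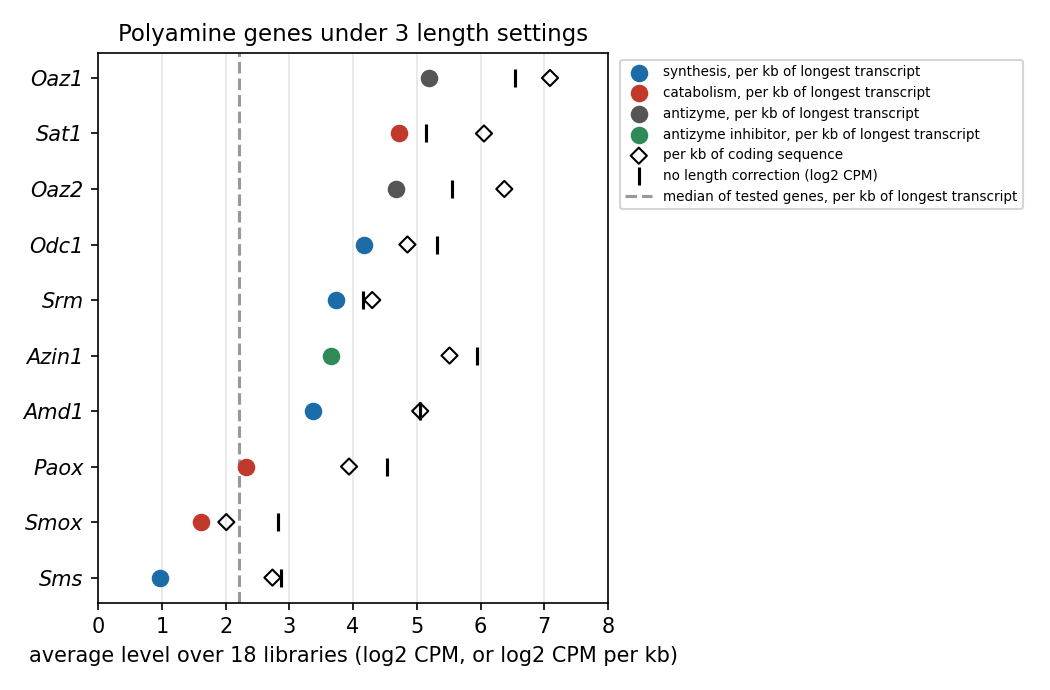
Average level of each of the 10 polyamine genes over the 18 libraries (one row per gene), as log2 CPM per kb of the longest transcript (filled circles, coloured by role), log2 CPM per kb of coding sequence (open diamonds) and log2 CPM with no length correction (bars). *Oaz1* lies farthest right and *Sms* farthest left among the filled circles, at 5.20 and 0.97, and the dashed line at 2.21, the median of tested genes per kb of the longest transcript, applies to the filled circles alone.

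The antizyme genes were among the most abundant members. *Oaz1* (ENSMUSG00000035242, chromosome 10 of GRCm38 from 80826656 to 80829290, plus strand) averaged 6.54 log2 CPM, or 92.8 CPM when that mean is turned back from the log scale. It ranked 1818 from the top of all tested genes, and its level of 5.20 log2 CPM per kb stood above 92.6% of genes with a length. *Oaz2* (ENSMUSG00000040652, chromosome 9 from 65668001 to 65690300) averaged 5.55 log2 CPM and 4.67 log2 CPM per kb. Per kb, *Oaz1* was thus 1.44-fold above *Oaz2*. The longest *Oaz1* transcript, of 2526 bases, carries no annotated coding sequence, and the longest that does has 1071 bases. Per kb of the longest coding transcript *Oaz1* was higher, at 6.44 log2 CPM per kb in place of 5.20, and its ratio to *Oaz2* was 3.40-fold. A processed pseudogene, *Oaz1-ps* on chromosome 17, was also listed, at 1.94 log2 CPM, and reads that fit both copies were divided by estimate.

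*Azin1* (ENSMUSG00000037458, chromosome 15 from 38487427 to 38519266, minus strand) averaged 5.94 log2 CPM, the second highest value among the 10 genes before length is taken into account. Its longest transcript of 4871 bases brings it to 3.66 log2 CPM per kb. *Odc1* (ENSMUSG00000011179, chromosome 12 from 17544794 to 17551505, plus strand) averaged 5.32 log2 CPM and, with 2208 bases, 4.18 log2 CPM per kb. The order of this decarboxylase and its inactive relative depended on the length used. *Odc1* lay 0.52 above *Azin1* on the log2 scale per kb of transcript, but the same difference was -0.66 per kb of coding sequence.

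Among the synthesis genes, *Odc1* was followed by *Srm*, *Amd1* and *Sms* per kb of transcript, whereas *Amd1* led per kb of coding sequence, at 5.05 against 4.85 for *Odc1*. *Srm* (ENSMUSG00000006442, chromosome 4 from 148591503 to 148594993, plus strand) averaged 4.16 log2 CPM and 3.74 log2 CPM per kb. *Amd1* (ENSMUSG00000075232, chromosome 10 from 40287458 to 40302186, minus strand) averaged 5.06 log2 CPM and 3.38 log2 CPM per kb. *Amd1* has a close coding copy, *Amd2*, and 5 annotated processed pseudogenes, none of which was listed among tested genes, so its level is uncertain. *Sms* (ENSMUSG00000071708, chromosome X from 157443855 to 157492287, minus strand) averaged 2.87 log2 CPM and 0.97 log2 CPM per kb, above 31.4% of genes with a length. The gene of spermidine synthase therefore stood 6.79-fold above that of spermine synthase per kb of transcript. This ratio was 2.96-fold per kb of coding sequence, since the longest *Sms* transcript holds 3717 bases and its coding part 1098. With no length correction the ratio was 2.44-fold. *Sms* and *Oaz2* each have an annotated processed pseudogene as well, neither listed among tested genes, so the same limit holds for their levels.

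In the catabolic arm the acetyltransferase gene exceeded both oxidase genes. *Sat1* (ENSMUSG00000025283, chromosome X from 155213132 to 155216449, minus strand) averaged 5.15 log2 CPM and 4.71 log2 CPM per kb, above 89.2% of genes with a length. *Paox* (ENSMUSG00000025464, chromosome 7 from 140115799 to 140137224, plus strand) averaged 4.53 log2 CPM and 2.31 log2 CPM per kb. *Smox* (ENSMUSG00000027333, chromosome 2 from 131491496 to 131525922, plus strand) averaged 2.82 log2 CPM and 1.62 log2 CPM per kb, so that *Paox* stood 1.62-fold above it. This ratio was 3.80-fold per kb of coding sequence and 3.27-fold with no length correction. Per kb of coding sequence *Smox* was the lowest of the 10 genes, at 2.01 against 2.73 for *Sms*. *Paox* shares 678 bases with *Echs1* on the opposite strand, a gene of fatty acid oxidation that averaged 7.27 log2 CPM. The sources used here do not name a strand setting for the counting, so the level of *Paox* is uncertain.

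**Figure D2:**
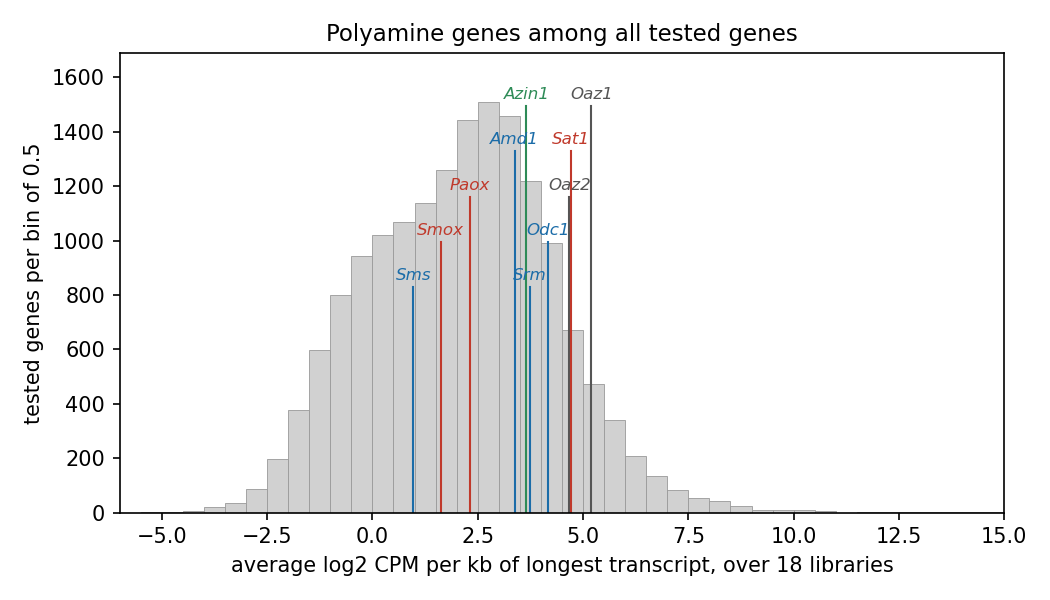
Histogram of all tested genes with an annotated length by average log2 CPM per kb of the longest transcript (grey bars, number of genes per bin), with a vertical line for each of the 10 polyamine genes (blue, synthesis; red, catabolism; grey, antizyme; green, antizyme inhibitor). *Sms* at 0.97 and *Smox* at 1.62 lie left of the median of 2.21, and *Sat1* at 4.71 and *Oaz1* at 5.20 lie on the right slope.

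Genes that feed the pathway, carry polyamines or use them were listed in part. Of 26 further genes, 19 were listed, 13 of them above the median of tested genes. The other 7 (*Arg1*, *Arg2*, *Agmat*, *Oaz3*, *Amd2*, *Satl1* and *Slc12a8*) were looked up by symbol but not listed, so they have no level here. Above the median lay all 3 listed genes of precursor supply, out of 6 looked up, and all 5 listed genes of transport. It was exceeded by 3 of 5 genes of methionine salvage, 2 of 4 of the hypusine pathway and 0 of 2 regulators and homologs. *Mat2a*, the catalytic subunit of the enzyme that makes S-adenosylmethionine, averaged 7.32 log2 CPM and 5.56 per kb, its regulatory partner *Mat2b* 4.04 per kb, and *Oat*, which exchanges ornithine with glutamate semialdehyde, 5.29 per kb. *Mat2a* and *Oat* therefore stood above every one of the 10 polyamine genes on this scale, though not under the other length settings. Per kb of coding sequence *Oaz1* was at 7.09, *Mat2a* at 7.08 and *Oat* at 6.00. Per kb of the longest coding transcript *Oaz1* was at 6.44, above *Mat2a* at 5.56 and *Oat* at 5.29.

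The hypusine pathway, which turns spermidine into a modification of the translation factor eIF5A, spread widely. *Eif5a* averaged 7.66 log2 CPM and 7.14 log2 CPM per kb, above 98.6% of genes with a length, whereas its relative *Eif5a2* averaged 0.34 log2 CPM per kb. The enzymes of the modification lay between them on this scale, *Dohh* (deoxyhypusine hydroxylase) at 3.90 and *Dhps* (deoxyhypusine synthase) at 2.42 log2 CPM per kb. Per kb of coding sequence *Dhps* was at 2.69, below *Eif5a2* at 3.79. The 5 listed transport genes all lay above the median of tested genes. *Slc3a2*, the heavy chain of amino acid transporters, averaged 5.01 log2 CPM per kb and *Atp13a3*, a P5-type ATPase linked to polyamine uptake, 4.45. *Slc18b1*, a vesicular polyamine transporter, the organic cation transporter *Slc22a3* and the lysosomal polyamine exporter *Atp13a2* followed at 3.76, 3.48 and 3.29 log2 CPM per kb.

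Methionine salvage recycles the methylthioadenosine that spermidine and spermine synthesis release. *Mtap*, its first enzyme, averaged 2.92 log2 CPM per kb. *Apip* averaged 4.84, *Adi1* 4.42, *Enoph1* 2.25 and *Mri1* 2.19 log2 CPM per kb. Among homologs of the 10 genes, *Azin2*, a relative of the antizyme inhibitor, averaged 2.38 and *Sat2*, a relative of the acetyltransferase, 1.86 log2 CPM per kb, both lower than *Azin1* and *Sat1*.

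**Figure D3:**
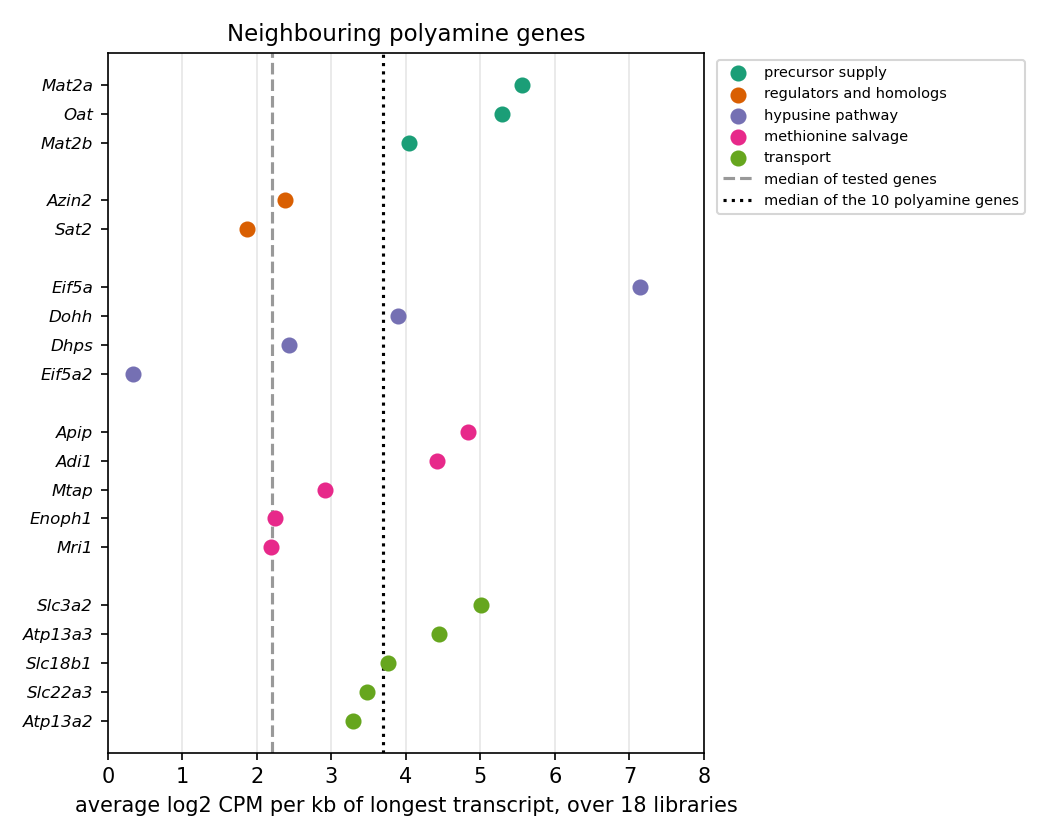
Average log2 CPM per kb of the longest transcript over the 18 libraries for the 19 listed genes around the polyamine pathway (one row per gene, coloured by role). *Eif5a* at 7.14 and *Eif5a2* at 0.34 mark the ends on this scale, while per kb of coding sequence *Dhps* at 2.69 lies below *Eif5a2* at 3.79. The dashed line is the median of tested genes (2.21) and the dotted line the median of the 10 polyamine genes (3.70).

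Promoter windows are shown for *Oaz1* and *Sms*, at either end of the order per kb of the longest transcript, to show how their sequence differs. The windows shown depend on this setting. *Smox*, the lowest of the 10 genes per kb of coding sequence and with no length correction, is not shown. RefSeq windows (GRCm38.p6) of 300 bases, 250 before and 50 after an annotated start, matched 8 of the 10 genes in 10 windows, while *Srm* and *Azin1* had none. Capitals mark matches on either strand to the E-box, TATA box, GC box or CCAAT box. The letters searched were CACGTG for the E-box and TATAAA for the TATA box. For the GC box they were GGGCGG, whose matches may overlap each other, and the CCAAT box was searched by its own name. The *Oaz1* window is chr10:80826406-80826705, plus strand. The windows of *Sms* are chrX:157492238-157492537 and chrX:157491319-157491618, minus strand.
Oaz1: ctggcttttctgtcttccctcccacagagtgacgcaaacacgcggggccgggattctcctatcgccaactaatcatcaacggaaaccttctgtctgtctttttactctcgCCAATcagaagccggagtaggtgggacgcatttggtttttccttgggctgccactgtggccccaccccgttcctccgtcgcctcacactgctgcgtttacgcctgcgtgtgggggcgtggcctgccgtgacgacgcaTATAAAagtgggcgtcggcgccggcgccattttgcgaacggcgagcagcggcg
Sms, window 1: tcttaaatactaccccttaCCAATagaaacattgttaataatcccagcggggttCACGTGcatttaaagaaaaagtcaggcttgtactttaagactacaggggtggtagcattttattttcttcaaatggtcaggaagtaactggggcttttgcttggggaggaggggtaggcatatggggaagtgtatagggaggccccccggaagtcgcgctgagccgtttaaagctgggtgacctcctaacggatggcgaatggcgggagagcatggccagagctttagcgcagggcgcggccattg
Sms, window 2: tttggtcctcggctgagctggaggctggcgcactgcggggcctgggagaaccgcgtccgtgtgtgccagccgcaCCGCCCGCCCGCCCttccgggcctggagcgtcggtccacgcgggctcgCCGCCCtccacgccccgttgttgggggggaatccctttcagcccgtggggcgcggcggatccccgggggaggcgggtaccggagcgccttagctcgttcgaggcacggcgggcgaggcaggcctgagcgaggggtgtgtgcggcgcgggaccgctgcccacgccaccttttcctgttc

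A GC box match was in 8 of the 10 windows, against 60.3% of 14031 windows of tested genes. Both *Paox* windows are among the 8, but they start at 140125407 and 140125435 and overlap. Their GC box matches are the same sites, so this stretch is counted more than once. The *Oaz1* window held none. It held the sole TATA box match of the 10 windows, which begins 3 bases before the annotated start, and a CCAAT box match 140 bases before it. TATA box matches were in 7.66% of all windows and CCAAT box matches in 37.5%. *Sms* had the sole E-box match, 196 bases before the annotated start in its upstream window, against 9.57% of all windows, and its downstream window held 4 GC box matches. The windows of *Sms* also differed in base composition, with 50.3% G and C upstream and 74.3% downstream, around a median of 60.3% over all windows. *Odc1* had the highest share of the 10 windows at 78.0% and 4 GC box matches. These matches describe letters in the windows and were not related to the levels.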

How the data were processed

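Perigonadal white adipose tissue RNA of 18 mice was sequenced after TruSeq library preparation. Per the submitters' processing notes, FastQC 0.11.8 and Trimmomatic 0.38 served for read quality and trimming, and the authors used STAR 2.5.1a for alignment (build GRCm38.p6) and RSEM 1.3.0 for quantification. The authors filtered genes on CPM, scaled by TMM with edgeR and applied limma-voom. The values used here are the average log2 CPM of each gene over all libraries, as the authors deposited them. The deposited sheets, 5 in all, otherwise hold fold changes, t statistics and p-values of the authors' own comparisons, and 4 of them list a subset of the genes, so these were not used and no test between groups was made. No columns of per-sample values were used, and the depth per library was not analysed here.

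Positions, transcript lengths and coding lengths came from GENCODE M21 (GRCm38), matched by Ensembl identifier for 16255 of 16272 genes, and computed with Python 3.11.15 and pandas 2.3.3. A percentile is the share of tested genes below a gene. Every polyamine gene and every listed gene of the list of further genes is named. The genes, lists and length settings were chosen with earlier results of these data known. Alternatives were ranking among protein-coding genes only, among genes of at least 0 log2 CPM or per length, coding length, no length correction and, added after the data were seen, the longest coding transcript. The ranking and motif search were checked on made-up inputs with known answers.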

Additional observations from a re-analysis of the deposited data

How the results depend on the processing

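The averages carry no replicate error, so these values show what each choice does and not which differences exceed the spread between mice. The number of polyamine genes above the median was 8 of 10 among all tested genes, per length and among genes of at least 0 log2 CPM, and 7 among protein-coding genes, where *Srm* lay below it. Among protein-coding genes alone the percentiles were 68.6 for *Odc1*, 63.5 for *Amd1*, 47.0 for *Srm*, 26.8 for *Sms*, 65.2 for *Sat1*, 26.2 for *Smox*, 54.1 for *Paox*, 86.8 for *Oaz1*, 72.7 for *Oaz2* and 78.8 for *Azin1*. Per kb of the longest transcript they were 83.4 for *Odc1*, 71.3 for *Amd1*, 77.4 for *Srm*, 31.4 for *Sms*, 89.2 for *Sat1*, 40.5 for *Smox*, 52.0 for *Paox*, 92.6 for *Oaz1*, 88.9 for *Oaz2* and 76.1 for *Azin1*. Among genes of at least 0 log2 CPM they were 72.1 for *Odc1*, 67.6 for *Amd1*, 52.9 for *Srm*, 33.8 for *Sms*, 69.2 for *Sat1*, 33.2 for *Smox*, 59.3 for *Paox*, 88.3 for *Oaz1*, 75.8 for *Oaz2* and 81.2 for *Azin1*. For *Odc1* minus *Azin1*, the log2 difference of 0.52 turned to -0.66 per kb of coding sequence and to -0.62 with no length correction. *Srm* minus *Sms* was 1.57 and 1.29 under the same settings, *Oaz1* minus *Oaz2* 0.72 and 0.98, and *Smox* minus *Paox* -1.93 and -1.71. With the longest coding transcript, *Oaz1* minus *Oaz2* was 1.76, *Srm* minus *Sms* 2.76, *Odc1* minus *Azin1* 0.52 and *Smox* minus *Paox* -0.69. No paired analysis was possible because the only values used are means over all libraries, which keep no single mouse. Depth was not analysed here.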
